A study of Mus musculus with 28 samples.

Results

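Mucin-type glycosyltransferases are the Golgi enzymes that build the sugar chains of mucins and of the proteins and lipids of the mucosal surface. The genes described here were taken by name: all members of the Galnt, Galntl, B3gnt, B3galt, B4galt, B4galnt, Gcnt, Fut, St3gal, St6gal, St6galnac and St8sia families with a numbered symbol, together with A4gnt, C1galt1 and C1galt1c1. This gave 78 genes of the 49492 in the count table, and 62 of them passed the filter on low counts and were tested. Polyadenylated RNA was sequenced from epithelial cells that had been scraped by hand from the corpus of the stomach, where acid is made. The groups were villin-PPARD mice and their WT littermates, with 5 mice of each genotype at 10 weeks of age, 4 of each at 25 weeks and 5 of each at 55 weeks, 28 libraries in all with 1 per mouse. PPARD is a nuclear receptor of the peroxisome proliferator-activated family that responds to lipids, and the villin promoter that drives the transgene is known mainly for its activity in intestinal epithelium. The design compares villin-PPARD with WT mice within each age, and ages within each genotype.

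In a mucin, a polypeptide GalNAc-transferase (the Galnt genes) first attaches N-acetylgalactosamine to serine or threonine. C1galt1, which needs the chaperone encoded by C1galt1c1, adds galactose to make the core 1 structure, B3gnt6 makes core 3 instead, and the Gcnt enzymes add the GlcNAc branches. Many B3gnt, B3galt and B4galt enzymes lengthen these branches, and fucosyltransferases, sialyltransferases, B4galnt enzymes and A4gnt cap them. In the stomach A4gnt makes the terminal alpha-linked GlcNAc that is carried mainly on Muc6 of the gland mucous cells, and Fut2 makes the H-type fucose of surface mucus. Taking families by name also brings in members that act chiefly on lipids or N-glycans, among them B4galnt1, B3galt4 and St3gal5, which make gangliosides, and Fut8, which fucosylates the core of N-glycans.

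Total counts ranged from 10982888 to 30891108 per library. Mitochondrial genes took 1.571 to 4.819%, 4.12 to 6.272% and 2.013 to 5.238% of the counts in villin-PPARD libraries at 10, 25 and 55 weeks, and 4.808 to 11.898%, 5.712 to 14.938% and 6.853 to 20.443% in WT libraries. The part of this share, and of the marker differences below, in the results was not tested. Values are CPM, read counts scaled between libraries with TMM and set relative to library total, and are means ± SD over mice. Differences are log2, villin-PPARD minus WT unless stated, ± SE from the edgeR quasi-likelihood test, and a gene was called at an adjusted p under 0.05 over 15812 genes. Marker genes differed at 55 weeks: the summed level of 8 pit cell markers was 37718 to 77184 CPM in villin-PPARD libraries and 161335 to 214215 CPM in WT libraries, and all 8 were called lower. Of the 7 parietal markers 6, 5 and 5 were called lower at 10, 25 and 55 weeks, of the 6 chief cell markers 3, 4 and 6, and of the 7 endocrine markers 2, 4 and 5. At 10 weeks the parietal markers summed to 8893 to 11061 CPM in villin-PPARD libraries and 14806 to 17187 CPM in WT libraries. The 4 leukocyte markers were all called higher at 55 weeks and none was called at the younger ages. Ppard averaged 110 ± 9.56, 90.6 ± 8.73 and 93.3 ± 7.3 CPM in villin-PPARD mice at 10, 25 and 55 weeks, and 74.1 ± 8.18, 73.2 ± 9.05 and 79.4 ± 5.42 CPM in WT mice. WT replicates 2 and 3 of 10 weeks were more alike than any other pair of a group and were kept as separate mice. The count columns name 2 library groups, and 10-week replicates 1 to 3 with the 25-week libraries lie in one and 10-week replicates 4 and 5 with the 55-week libraries in the other, except a 25-week WT library marked as a replacement.

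At 10 weeks 17 of the 62 tested genes were called higher in villin-PPARD corpus and 7 lower, together 38.7% where 34% of all 15812 genes were called (17.9% higher, 16.2% lower). At 25 weeks 17 were higher and 13 lower, 48.4% against a background of 39.6% (21% higher, 18.6% lower). At 55 weeks 24 were higher and 19 lower, 69.4% against 59.3% (31.7% higher, 27.6% lower). The counts given below for each enzyme family are to be read against these same shares of all genes. The median log2 difference of the 62 genes was 0.13, 0.07 and 0.17 at 10, 25 and 55 weeks, where that of all genes was -0.03, -0.01 and 0.03. Scaling mattered most at 55 weeks: with library size alone the median of all genes shifted by 0.40, and 34 members were called higher and 7 lower. At 25 weeks that scaling left 24 called higher and 6 lower, and at 10 weeks 19 and 4.

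**Figure D1:**
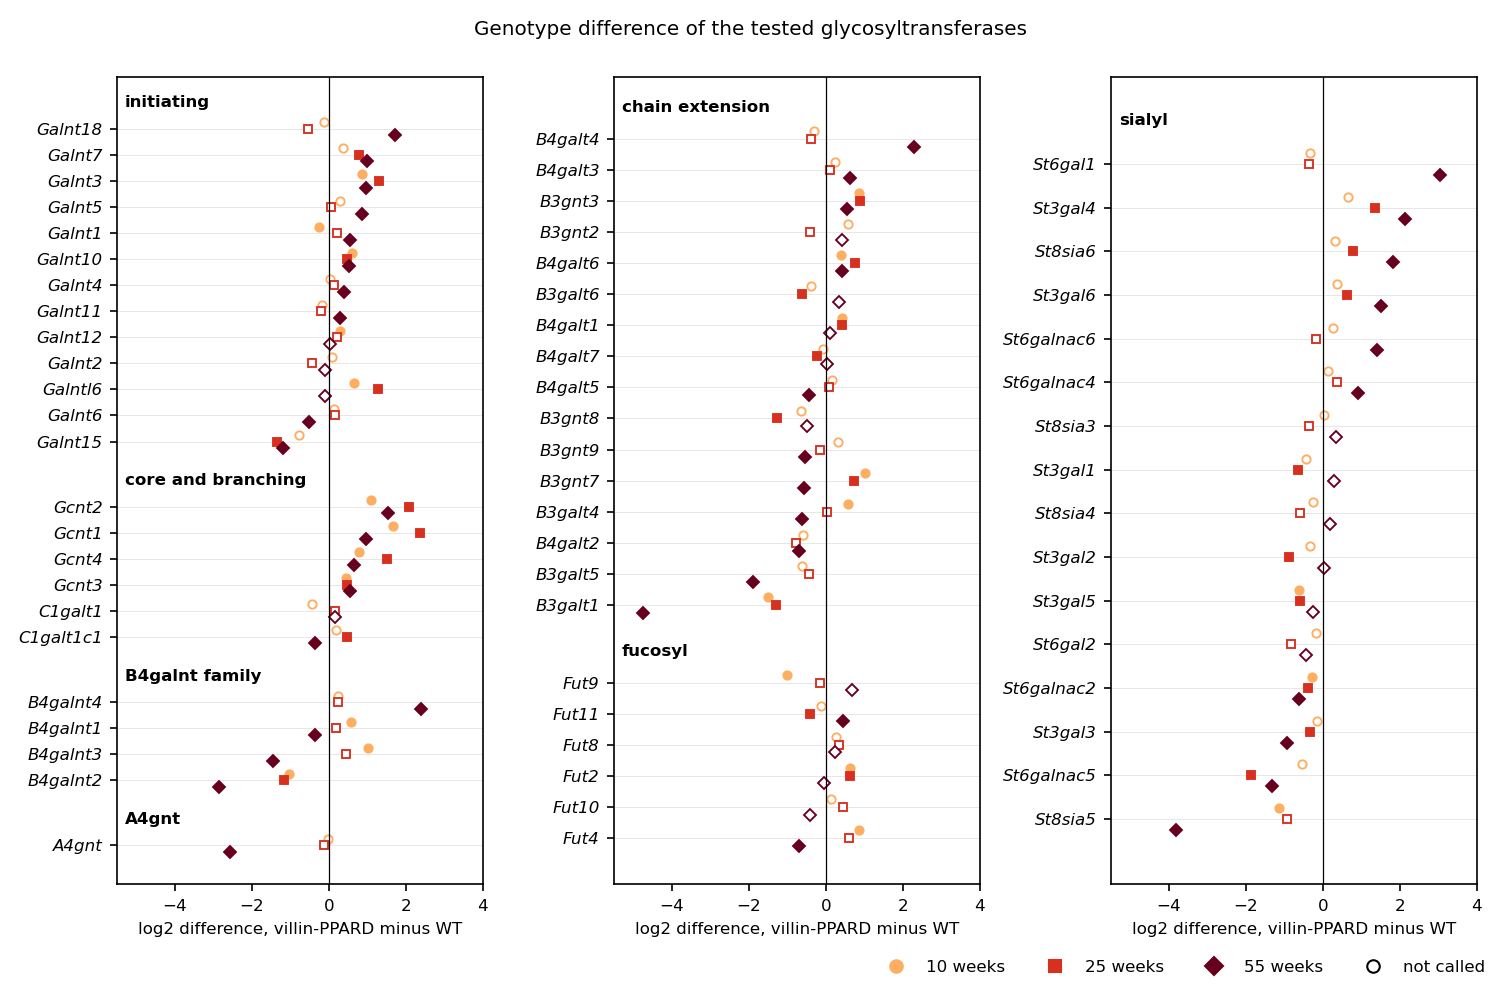
Log2 difference between villin-PPARD and WT mice for each of the 62 tested genes at 10 weeks (circles), 25 weeks (squares) and 55 weeks (diamonds). Genes are grouped by the step their family name stands for and ordered by the 55-week value, and filled symbols were called. The Gcnt genes lie to the right at all ages, A4gnt and B4galnt3 lie far left only at 55 weeks among the ages plotted, and St6gal1 reaches 3.06 at 55 weeks.

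Over the 3 ages, 11 of the 62 members were called in the same direction each time, where 16.5% of all genes were. Of these 11, 6 kept the pattern with 10-week replicates 1 to 3 only and 5 with 10-week replicates 4 and 5 only, fewer mice being used. The 8 that were higher throughout were Gcnt1, Gcnt2, Gcnt3, Gcnt4, Galnt3, Galnt10, B3gnt3 and B4galt6, and the 3 that were lower throughout were B3galt1, B4galnt2 and St6galnac2. A further 6 were called in opposite directions at 10 and 55 weeks, where 3.31% of all genes were: B4galnt3, B4galnt1, B3gnt7, B3galt4 and Fut4 were higher at 10 weeks and lower at 55 weeks, and Galnt1 was lower and then higher. With library size alone only B4galnt3 of these 6 kept the opposite calls. Another 16 were called at 55 weeks and at neither earlier age, where 25.3% of all genes were, and they include A4gnt and B3galt5 on the lower side and St6gal1, B4galt4 and Galnt18 on the higher side.

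The upstream sequences of 4 genes are shown to set their base composition side by side: A4gnt and B4galnt3, which were lower in villin-PPARD mice at 55 weeks, and St3gal4 and St8sia6, which were higher. They were chosen after their values were seen and are not the most extreme members, so the contrast describes these 4 windows and no other member. Each line gives the 250 bases before the RefSeq transcript start on GRCm38.p6, 5′ to 3′ on the gene's strand, with each CG in capitals. A4gnt is at chr9:99612252-99612501 on the plus strand, B4galnt3 at chr6:120294898-120295147 on the minus strand, St3gal4 at chr9:35116865-35117114 on the minus strand and St8sia6 at chr2:13793521-13793770 on the minus strand.
A4gnt: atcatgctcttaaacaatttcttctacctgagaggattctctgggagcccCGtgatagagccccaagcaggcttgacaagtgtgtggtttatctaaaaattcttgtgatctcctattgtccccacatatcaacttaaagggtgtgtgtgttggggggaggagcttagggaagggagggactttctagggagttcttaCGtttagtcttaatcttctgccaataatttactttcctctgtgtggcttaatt
B4galnt3: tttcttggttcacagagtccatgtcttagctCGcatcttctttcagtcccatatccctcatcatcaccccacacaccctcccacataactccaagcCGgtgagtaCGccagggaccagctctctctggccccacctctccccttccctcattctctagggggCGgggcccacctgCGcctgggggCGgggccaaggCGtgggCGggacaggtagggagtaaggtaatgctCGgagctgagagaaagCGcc
St3gal4: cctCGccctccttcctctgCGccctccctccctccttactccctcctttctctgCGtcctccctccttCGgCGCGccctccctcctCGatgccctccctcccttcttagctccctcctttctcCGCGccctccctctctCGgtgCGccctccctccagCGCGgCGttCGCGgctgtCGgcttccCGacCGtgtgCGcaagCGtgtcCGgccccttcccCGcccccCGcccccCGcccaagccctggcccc
St8sia6: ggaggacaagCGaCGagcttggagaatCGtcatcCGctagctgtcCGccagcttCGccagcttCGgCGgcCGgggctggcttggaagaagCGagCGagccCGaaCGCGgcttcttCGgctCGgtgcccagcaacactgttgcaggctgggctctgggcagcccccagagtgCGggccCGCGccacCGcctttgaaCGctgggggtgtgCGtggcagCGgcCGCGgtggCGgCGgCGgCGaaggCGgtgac
The A4gnt window held 2 CG dinucleotides and 43.6% G and C, and that of B4galnt3 held 10 and 60.8%. The St3gal4 window held 25 and 72.8%, and that of St8sia6 held 30 and 70.8%, where the medians over 32851 such windows in the table were 6 and 52.4%. The windows searched for motifs held 50 further bases after the start, and 57 of the 78 genes had one, 77 windows in all. The PPAR-RXR direct repeat (AGGTCA, any 1 base, AGGTCA, on either strand) was in 0 of the 77 and in 0.04% of all windows. The interferon-stimulated response element core (GAAA, any 2 bases, GAAA, on either strand) was in 1 of the 77, that of Galntl5, and in 3.443% of all windows.

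Among the 18 initiating GalNAc-transferases, 13 were tested, and 4, 4 and 8 of them were called higher in villin-PPARD mice at 10, 25 and 55 weeks, with 1, 1 and 2 called lower. Galnt3 (ENSMUSG00000026994, chromosome 2, 66082766 to 66124994, minus strand, GRCm38) was higher at every age and its groups never overlapped. At 10 weeks it read 120, 92.5, 128, 131 and 151 CPM in villin-PPARD mice and 74.2, 69.2, 66.4, 73.3 and 57.9 CPM in WT mice. At 25 weeks it read 222, 175, 110 and 162 CPM against 56.3, 85.2, 65.1 and 68.1 CPM, and at 55 weeks 99.4, 137, 129, 125 and 174 CPM against 77.7, 66.6, 62.8, 69.3 and 61.8 CPM. The log2 differences were 0.87 ± 0.15, 1.29 ± 0.17 and 0.97 ± 0.15 (adjusted p 6.86e-05, 1.36e-06 and 2.76e-06). WT mice stayed at 67.6 to 68.7 CPM on average over the 3 ages.

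Galnt7, which prefers substrates that already carry GalNAc, averaged 217, 272 and 315 CPM in villin-PPARD mice at the 3 ages and 167, 158 and 158 CPM in WT mice. It was not called at 10 weeks (0.37 ± 0.15, adjusted p 0.055) and was called at 25 weeks (0.78 ± 0.17) and 55 weeks (1.0 ± 0.15, adjusted p 1.68e-06). Galnt1, a broadly expressed initiator, averaged 76.4 CPM in villin-PPARD mice and 92.4 CPM in WT mice at 10 weeks, and 126 and 86.3 CPM at 55 weeks. Its 55-week difference was 0.55 ± 0.09 (adjusted p 9.76e-06), and its genotype difference had changed by 0.82 ± 0.13 since 10 weeks. The small 10-week difference of -0.27 ± 0.09 (adjusted p 0.0238) lost its call without villin-PPARD replicate 1 or 2 (-0.23 and -0.24) or WT replicate 2 (-0.26) and with library size alone. Galnt10 was higher by 0.61 ± 0.12, 0.46 ± 0.14 and 0.53 ± 0.12.

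By level per kilobase of exon, Galnt4 and Galnt12 led this family, at 74 and 57.5 CPM per kb in 10-week WT mice. Galnt4 was called at 55 weeks (0.39 ± 0.11) and Galnt12 at 10 weeks (0.30 ± 0.09), and at no other age. Galnt6, next in level, fell at 55 weeks to 98.3 ± 8.04 CPM in villin-PPARD mice against 139 ± 16 CPM in WT mice (-0.51 ± 0.09, adjusted p 3.41e-05), a call lost with library size alone. Galnt18 was scarce, at 3.67, 1.96, 1.58, 3.32 and 2.51 CPM in 55-week villin-PPARD mice and 0.651, 0.37, 1.25, 0.905 and 0.8 CPM in WT mice, with no overlap (1.73 ± 0.30, adjusted p 1.04e-05). Galnt15 was lower at 25 weeks (-1.36 ± 0.48) and 55 weeks (-1.20 ± 0.39) at means under 2 CPM in each group, and its 25-week call was lost without villin-PPARD replicate 4 (-1.09) or WT replicate 3 (-1.13) or 4 (-1.18). The 55-week call was lost with library size alone (-0.80, adjusted p 0.064). Galntl6 was higher at 10 weeks (0.64 ± 0.18) and 25 weeks (1.28 ± 0.21) and had -0.11 ± 0.19 at 55 weeks. Galnt2 read at most 2.18 CPM in any library, and 90% of its exon bases overlap Gm20388 on the same strand, so its counts are uncertain.

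Of the 6 tested core and branching enzymes, 4 were called higher at 10 weeks, 5 at 25 weeks and 4 at 55 weeks, and 1 of them, C1galt1c1, was called lower at 55 weeks. The median log2 differences of these 6 were 0.61, 1.0 and 0.60 at the 3 ages. Gcnt3, the mucin branching enzyme that makes core 2 and core 4, had the highest level per kilobase of all 78 genes in WT mice at 10 weeks, 169 CPM per kb. At 10 weeks it read 1031, 876, 892, 1090 and 1055 CPM in villin-PPARD mice and 827, 589, 601, 809 and 807 CPM in WT mice. At 55 weeks it read 853, 1113, 1147, 840 and 1053 CPM against 837, 580, 662, 747 and 605 CPM. No villin-PPARD mouse lay within the WT range at these 2 ages, and the differences were 0.44 ± 0.14, 0.47 ± 0.15 and 0.54 ± 0.14 at 10, 25 and 55 weeks (adjusted p 0.0126, 0.0164 and 0.00108). At 25 weeks the groups overlapped, and without villin-PPARD replicate 1 the value was 0.35 (adjusted p 0.0958).

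Gcnt1, the core 2 branching enzyme of many cell types (chromosome 19, 17326141 to 17372844), was less abundant but differed more. It read 7.37, 5.04, 6.28, 8.56 and 6.22 CPM in villin-PPARD mice at 10 weeks and 2.03, 2.65, 2.16, 1.93 and 1.68 CPM in WT mice. At 25 weeks the values were 11.5, 9.53, 3.64 and 7.74 CPM against 0.917, 1.67, 1.37 and 2.32 CPM, and at 55 weeks 3.76, 5.09, 4.97, 2.98 and 4.29 CPM against 2.45, 2.14, 2.41, 2.22 and 1.54 CPM. Its groups were apart at all 3 ages, with differences of 1.67 ± 0.24, 2.36 ± 0.28 and 0.97 ± 0.24 (adjusted p 3.94e-06, 1.93e-07 and 0.0011). Within villin-PPARD mice Gcnt1 was lower at 55 than at 10 weeks, by -0.67 ± 0.22 (adjusted p 0.0118).

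Gcnt2, which branches linear lactosamine chains into the I antigen (chromosome 13, 40859754 to 40960892), read 17.4, 14.5, 15, 23 and 21.1 CPM in villin-PPARD mice at 10 weeks and 6.79, 9.28, 9.04, 9.59 and 7.73 CPM in WT mice. At 25 weeks it read 37.2, 33.9, 15.1 and 43.5 CPM against 5.75, 6.35, 7.66 and 10.3 CPM, and at 55 weeks 23.7, 41.7, 44, 36.9 and 41.6 CPM against 20.5, 10.9, 9.71, 12.3 and 10.9 CPM. All villin-PPARD mice were above all WT mice of the same age, and the differences were 1.10 ± 0.24, 2.09 ± 0.28 and 1.53 ± 0.23 (adjusted p 0.000986, 1.97e-06 and 3.08e-06). Gcnt4, another core 2 enzyme, was higher by 0.78 ± 0.20, 1.52 ± 0.23 and 0.66 ± 0.21.

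C1galt1, the core 1 synthase, averaged 175 ± 53.2, 242 ± 17.5 and 222 ± 38.2 CPM in villin-PPARD mice at 10, 25 and 55 weeks and 237 ± 48.8, 216 ± 73.7 and 201 ± 57.4 CPM in WT mice. It was called at no age (-0.43 ± 0.22, 0.16 ± 0.24 and 0.15 ± 0.22, adjusted p 0.125, 0.617 and 0.582), and its groups overlapped each time. Its chaperone C1galt1c1 was higher at 25 weeks (0.48 ± 0.15) and lower at 55 weeks (-0.35 ± 0.13, adjusted p 0.0254). The 25-week call was lost without villin-PPARD replicate 1 (0.37), and that at 55 weeks without villin-PPARD replicate 1 (-0.30) or 4 (-0.31) or WT replicate 1 (-0.25), and it turned to 0.05 with library size alone. B3gnt6, the core 3 synthase, read at most 0.45 CPM and was not tested.

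Of 19 genes grouped by name as chain extending, 16 were tested, with 5, 4 and 4 called higher and 1, 4 and 7 called lower at 10, 25 and 55 weeks. Not all of them need act on mucins. B3gnt3, which extends core 1 (chromosome 8), was one of the abundant members. Its values were 439, 359, 393, 438 and 436 CPM in villin-PPARD mice at 10 weeks against 251, 212, 202, 238 and 239 CPM in WT mice, and at 55 weeks 288, 415, 418, 338 and 410 CPM against 313, 233, 233, 273 and 213 CPM. The groups were apart at 10 and 25 weeks and overlapped by 1 mouse of each genotype at 55 weeks, with differences of 0.85 ± 0.12, 0.90 ± 0.13 and 0.56 ± 0.12 (adjusted p 2.74e-06, 7.55e-06 and 0.000176). B4galt1, a main lactosamine galactosyltransferase, was higher at 10 and 25 weeks (0.42 ± 0.09 and 0.42 ± 0.11) and had 0.11 ± 0.09 at 55 weeks.

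B3gnt7, a GlcNAc-transferase of keratan sulfate-type lactosamine chains (chromosome 1, 86302832 to 86307305), changed sides. It read 303, 260, 226, 271 and 241 CPM in villin-PPARD mice at 10 weeks and 136, 117, 114, 126 and 142 CPM in WT mice. At 25 weeks it read 245, 221, 194 and 192 CPM against 142, 116, 125 and 127 CPM, and at 55 weeks 62.9, 105, 98.4, 81.6 and 86.6 CPM against 144, 107, 136, 145 and 107 CPM. WT mice held about the same level throughout, with means of 127, 127 and 128 CPM. The differences were 1.03 ± 0.12, 0.74 ± 0.13 and -0.56 ± 0.12 (adjusted p 1.04e-07, 8.83e-05 and 0.000183), with no overlap at any age. The 55-week value was -0.17 with library size alone (adjusted p 0.149), whereas the change of the genotype difference between 55 and 10 weeks, -1.60 ± 0.17 (adjusted p 1.27e-08), kept its call and sign at -1.24.

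B3galt1 and B3galt5 make type 1 chains, the backbone of the Lewis a and b antigens. B3galt1 (chromosome 2, 67565871 to 68122689) read 1.13, 1.08, 1.96, 1.62 and 1.43 CPM in villin-PPARD mice at 10 weeks and 5.58, 3.5, 3.61, 5.21 and 2.69 CPM in WT mice. At 55 weeks it read 0.256, 0.182, 0.116, 0.112 and 0.157 CPM against 9.36, 3.7, 3.03, 3.94 and 3.01 CPM. The groups were apart at both ages, and the differences were -1.50 ± 0.30 at 10 weeks, -1.30 ± 0.34 at 25 weeks and -4.75 ± 0.38 at 55 weeks (adjusted p 0.000313, 0.00335 and 8.72e-12). B3galt5 read 4.84, 21.1, 21.9, 3.95 and 9.2 CPM in villin-PPARD mice at 55 weeks and 71.2, 41.1, 36.6, 43.4 and 30.8 CPM in WT mice, with no overlap (-1.89 ± 0.34, adjusted p 4.06e-05). B3galt4, which acts on gangliosides, was higher at 10 weeks (0.58 ± 0.12, adjusted p 0.000455), had 0.04 ± 0.14 at 25 weeks and was lower at 55 weeks (-0.61 ± 0.12, adjusted p 8.35e-05), the last of which was -0.22 and not called with library size alone.

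B4galt4, a galactosyltransferase that also acts on sulfated GlcNAc, read 11.1, 5.5, 3.16, 4.58 and 3.97 CPM in villin-PPARD mice at 55 weeks and 0.951, 1.63, 0.891, 0.951 and 1.35 CPM in WT mice. These groups did not overlap (2.30 ± 0.32, adjusted p 3.48e-07), while at 10 and 25 weeks all means lay under 1 CPM and the gene was not called. B4galt6 was higher at all 3 ages (0.39 ± 0.12, 0.76 ± 0.13 and 0.41 ± 0.12). B3galt6, B3gnt8, B4galt7 and B3galt1 were the 4 called lower at 25 weeks. Those of B3galt6 (-0.46) and B4galt7 were lost with library size alone. The B3galt6 call was also lost without villin-PPARD replicate 4 (-0.55) or WT replicate 4 (-0.45), and that of B3gnt8 without villin-PPARD replicate 2, 3 or 4 or WT replicate 1 or 4 (-1.23 to -1.02). B4galt2, at means under 2 CPM, was called lower at 55 weeks (-0.71 ± 0.29) and lost that call without villin-PPARD replicate 2, 3 or 5 or WT replicate 3 or 4, with values from -0.67 to -0.58, with no filter (-0.69), and with library size alone (-0.29, adjusted p 0.402). B4galt2 also shares 28.2% of its exon bases with Ccdc24 on the same strand, so its counts are uncertain.

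**Figure D2:**
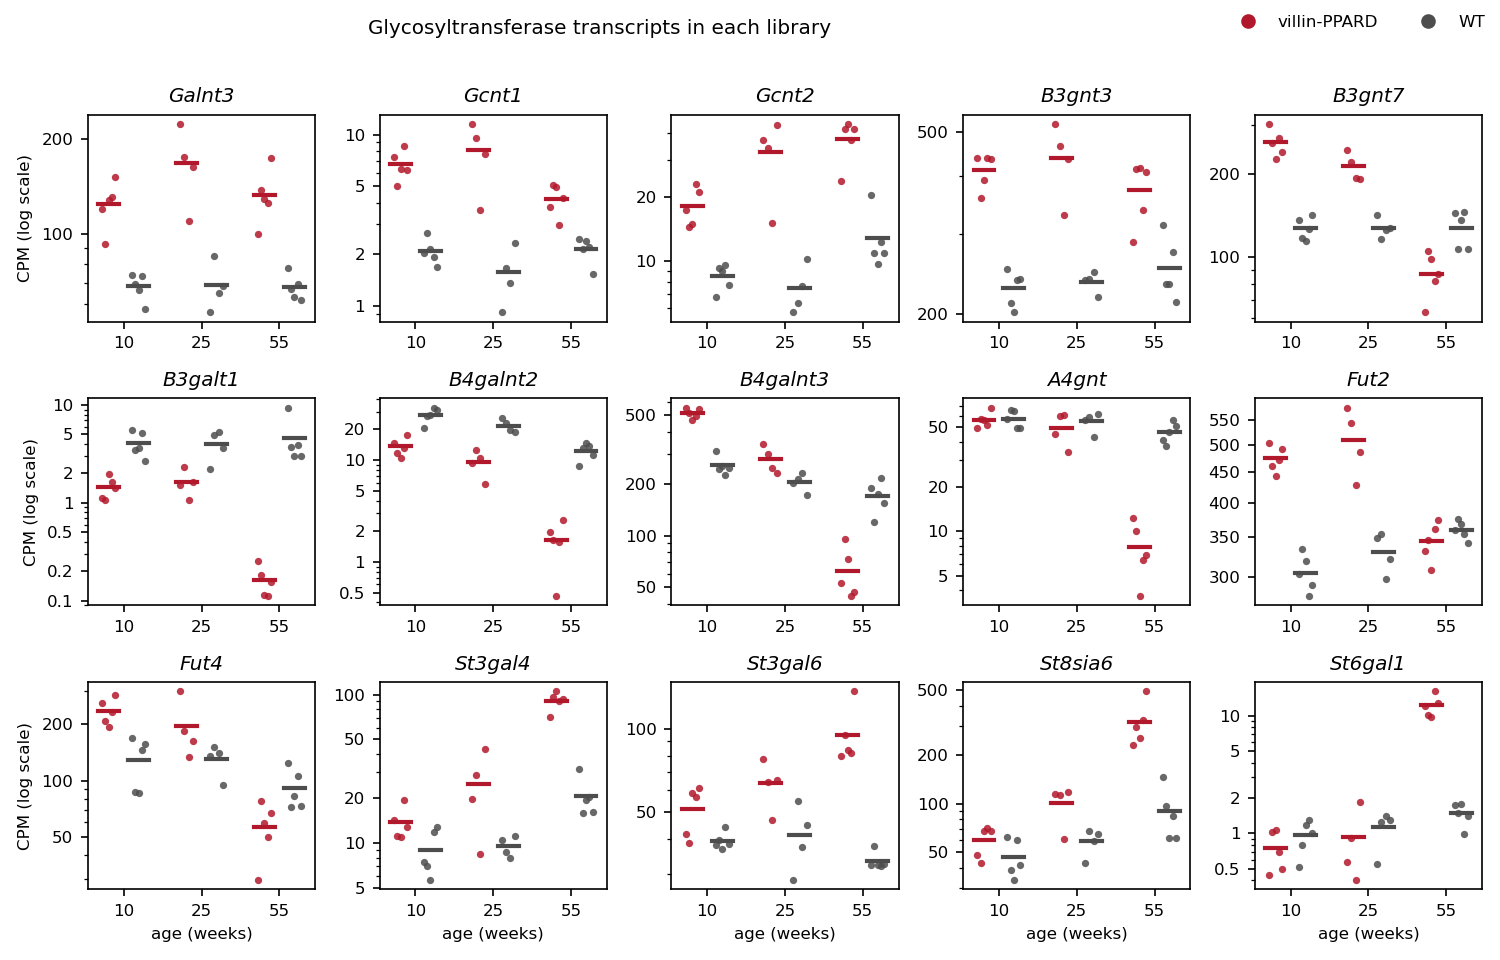
CPM of 15 members in each library on log axes, with villin-PPARD mice left of WT mice at 10, 25 and 55 weeks; points are mice and bars are group means. Galnt3, Gcnt1 and Gcnt2 were apart at every age, B3gnt7 and B4galnt3 lay above WT at 10 weeks and below it at 55 weeks, and A4gnt fell to 3.66 to 12.2 CPM only in the 55-week villin-PPARD libraries of those plotted.

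Of the 4 B4galnt genes, which add GalNAc near chain ends, 2 were called higher and 1 lower at 10 weeks, none higher and 1 lower at 25 weeks, and 1 higher and 3 lower at 55 weeks. B4galnt3 joins GalNAc to GlcNAc in the LacdiNAc unit of gastric mucus (ENSMUSG00000041372, chromosome 6, 120203073 to 120294559, minus strand). It read 554, 515, 469, 496 and 546 CPM in villin-PPARD mice at 10 weeks and 311, 243, 255, 224 and 248 CPM in WT mice. At 25 weeks it read 343, 300, 246 and 231 CPM against 201, 212, 232 and 172 CPM, and at 55 weeks 52.8, 95, 72.7, 44.4 and 46.7 CPM against 189, 120, 174, 215 and 154 CPM. All villin-PPARD mice were above all WT mice at 10 weeks, all but 1 were at 25 weeks, and all were below them at 55 weeks. The differences were 1.01 ± 0.17 (adjusted p 3.23e-05), 0.45 ± 0.19 (adjusted p 0.0513, not called) and -1.45 ± 0.17 (adjusted p 1.88e-08). The genotype difference changed by -2.46 ± 0.24 between 55 and 10 weeks (adjusted p 2.81e-09), and by -2.59 when only 10-week replicates 4 and 5, which share a library group with the 55-week mice, were kept.

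B4galnt2, which makes the Sda antigen (chromosome 11, 95865943 to 95914891), was lower at every age. It read 14.8, 11.8, 10.4, 13.2 and 17.8 CPM in villin-PPARD mice at 10 weeks and 20.8, 27, 28, 32.6 and 30.9 CPM in WT mice, and at 55 weeks 1.97, 1.64, 0.462, 1.56 and 2.56 CPM against 8.76, 13.2, 14.8, 13.9 and 11.3 CPM. No groups overlapped, and the differences were -1.04 ± 0.22, -1.17 ± 0.25 and -2.87 ± 0.25 (adjusted p 0.000569, 0.000566 and 1.75e-10). B4galnt1, the ganglioside GalNAc-transferase, averaged 392 CPM in villin-PPARD mice and 264 CPM in WT mice at 10 weeks (0.57 ± 0.10), and 226 and 289 CPM at 55 weeks (-0.36 ± 0.10, adjusted p 0.00222). That 55-week direction turned to 0.05 with library size alone. B4galnt1 shares 20.7% of its exon bases with Slc26a10 on the opposite strand, which unstranded reads cannot separate. B4galnt4, also a LacdiNAc enzyme, was at 1.39 ± 0.76 CPM in villin-PPARD mice and 0.249 ± 0.0796 CPM in WT mice at 55 weeks (2.40 ± 0.49, adjusted p 0.000114). This was the B4galnt call on the higher side at 55 weeks. In the libraries of the other groups B4galnt4 read at most 0.401 CPM. It passed the filter on low counts only through the 55-week villin-PPARD libraries, so its test was not independent of their high values. A stricter filter did not keep it.

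A4gnt (ENSMUSG00000037953, chromosome 9, 99612502 to 99622367, plus strand) was level between genotypes at the 2 younger ages. It read 49.5, 56.9, 56.4, 52.2 and 67.8 CPM in villin-PPARD mice at 10 weeks and 56.6, 66, 64.8, 49.6 and 49.4 CPM in WT mice (-0.02 ± 0.20, adjusted p 0.951), and at 25 weeks 45, 59.3, 60.3 and 34 CPM against 56.2, 58.7, 43.3 and 61.9 CPM (-0.14 ± 0.22, adjusted p 0.631). At 55 weeks it read 12.2, 10, 3.66, 6.41 and 6.9 CPM in villin-PPARD mice and 41.2, 37.3, 46.3, 55.9 and 50.8 CPM in WT mice. The 2 groups were then far apart (-2.56 ± 0.21, adjusted p 7.13e-11), and the genotype difference had changed by -2.54 ± 0.29 since 10 weeks (adjusted p 8.39e-08). In bulk libraries such as these, fewer cells of a type and less RNA per cell cannot be told apart. Of the 3 mucous neck cell markers, which mark the cells known for A4gnt, Muc6 averaged 221 CPM in villin-PPARD mice and 692 CPM in WT mice at 55 weeks (-1.65 ± 0.31), Tff2 averaged 1989 CPM in villin-PPARD mice and 2400 CPM in WT mice (-0.27 ± 0.19, not called), and Gkn3 was higher, at 175 CPM in villin-PPARD mice and 28.1 CPM in WT mice. Their summed level was 1705 to 2921 CPM in villin-PPARD mice and 2143 to 3957 CPM in WT mice, and its part in the A4gnt difference was not tested.

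Of the 6 tested fucosyltransferases, 2 were called higher and 1 lower at 10 weeks, and 1 in each direction at 25 and at 55 weeks. Fut2 (chromosome 7, 45648591 to 45666394), which had the highest level per kilobase of the 8, read 504, 461, 444, 472 and 493 CPM in villin-PPARD mice at 10 weeks and 304, 334, 319, 279 and 291 CPM in WT mice. At 25 weeks it read 577, 544, 428 and 487 CPM against 349, 355, 298 and 322 CPM, and at 55 weeks 332, 346, 309, 362 and 374 CPM against 360, 376, 369, 354 and 343 CPM. The groups were apart at the younger ages (0.64 ± 0.08 and 0.62 ± 0.09, adjusted p 1.13e-06 and 9.33e-06) and overlapped at 55 weeks (-0.06 ± 0.08, adjusted p 0.532). With library size alone the 55-week value was 0.34 and was called (adjusted p 0.000764). The change of the genotype difference between 55 and 10 weeks was -0.70 ± 0.12 (adjusted p 2.66e-05).

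Fut4, a Lewis x fucosyltransferase (chromosome 9, 14748320 to 14752393), averaged 237 ± 38.2 CPM in villin-PPARD mice and 129 ± 39.7 CPM in WT mice at 10 weeks (0.87 ± 0.24, adjusted p 0.00681). At 55 weeks it averaged 57 ± 18.3 CPM against 91.8 ± 22.6 CPM (-0.69 ± 0.24, adjusted p 0.017), with overlap. That 55-week call was lost without villin-PPARD replicate 1 (-0.53) or WT replicate 1 (-0.56) and with library size alone (-0.31). Fut9, the other enzyme known for Lewis x, ran the other way: it averaged 10.6 CPM in villin-PPARD mice and 21.5 CPM in WT mice at 10 weeks (-1.01 ± 0.31, adjusted p 0.0136), and 18 and 11.4 CPM at 55 weeks (0.67 ± 0.31, adjusted p 0.0654, not called). Its genotype difference changed by 1.68 ± 0.44 (adjusted p 0.00365), or by 1.07 with 10-week replicates 4 and 5 alone (adjusted p 0.142). Fut8 was called at no age, with 0.26 ± 0.13, 0.35 ± 0.15 and 0.24 ± 0.13. Fut11 was called lower at 25 weeks (-0.42 ± 0.14), a call lost with library size alone, and higher at 55 weeks (0.44 ± 0.13).

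Among the sialyltransferases, none of the 16 tested was called higher at 10 weeks and 3 were lower. At 25 weeks 3 were higher and 6 lower, and at 55 weeks 6 were higher and 4 lower. Of the 6 lower at 25 weeks, St3gal1, St3gal2, St3gal3 and St6galnac2 lost the call with library size alone. St3gal4, which adds sialic acid to lactosamine ends and takes part in making sialyl Lewis x (chromosome 9, 35046576 to 35119268), read 14.4, 11.1, 11, 19.6 and 12.9 CPM in villin-PPARD mice at 10 weeks and 7.44, 7.05, 5.68, 11.8 and 12.8 CPM in WT mice. At 25 weeks it read 19.9, 28.7, 8.44 and 43 CPM against 10.5, 8.75, 8 and 11.1 CPM, and at 55 weeks 70.2, 96, 105, 90.1 and 94 CPM against 31.6, 16, 19.4, 20.6 and 16.2 CPM. The groups overlapped at the younger ages and were apart at 55 weeks. The differences were 0.65 ± 0.30 (adjusted p 0.0998, not called), 1.37 ± 0.34 (adjusted p 0.00247) and 2.13 ± 0.29 (adjusted p 6.65e-07). WT mice were themselves higher at 55 than at 10 weeks, by 1.24 ± 0.30 (adjusted p 0.00878). This call was lost against 10-week replicates of the same library group (0.75, adjusted p 0.41) and with a library group term (0.90, adjusted p 0.115).

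St8sia6, which adds a second sialic acid on O-glycans (chromosome 2, 13651021 to 13794064), read 48, 42.7, 67.9, 70.8 and 67.6 CPM in villin-PPARD mice at 10 weeks and 61.8, 38.7, 33.9, 59.7 and 41.5 CPM in WT mice. At 55 weeks it read 230, 299, 254, 330 and 493 CPM against 147, 96.8, 61.4, 83.3 and 61.5 CPM, with no overlap. Its differences were 0.33 ± 0.25 at 10 weeks, 0.79 ± 0.28 at 25 weeks (adjusted p 0.0255) and 1.83 ± 0.25 at 55 weeks (adjusted p 6.55e-07). The 25-week call was lost without villin-PPARD replicate 1, 2 or 4 or WT replicate 1, with values of 0.67 to 0.74. St3gal6, another sialyl Lewis x enzyme, read 79.5, 94.5, 83.9, 81.4 and 136 CPM in villin-PPARD mice at 55 weeks and 32.3, 37.8, 32.3, 32 and 32.7 CPM in WT mice (1.51 ± 0.16, adjusted p 4.22e-09). It shares 26% of its exon bases with Dcbld2 on the opposite strand.

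St6gal1, a sialyltransferase of N-glycans (ENSMUSG00000022885, chromosome 16, 23224740 to 23360350, plus strand), had the largest rise in log2 terms among the 62 at 55 weeks. It read 12.2, 10.3, 9.82, 16.2 and 13 CPM in villin-PPARD mice and 1.75, 1.48, 1.78, 0.996 and 1.42 CPM in WT mice (3.06 ± 0.27, adjusted p 9.26e-11). At 10 weeks it averaged 0.745 ± 0.29 and 0.963 ± 0.313 CPM and at 25 weeks 0.938 ± 0.651 and 1.13 ± 0.393 CPM in villin-PPARD and WT mice, without a call. St6gal1 is also known from lymphocytes. The 4 leukocyte markers summed to 26.1 to 62.9 CPM in villin-PPARD mice at 55 weeks and 18.2 to 21 CPM in WT mice, and of 6 tested B and plasma cell markers 4 were higher and 2 lower, with sums of 261 to 469 CPM in villin-PPARD mice and 252 to 315 CPM in WT mice. The part of these cells in the St6gal1 difference was not tested.

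St3gal5, which makes the ganglioside GM3, was called lower at 10 weeks (27.6 ± 2.34 CPM in villin-PPARD mice, 42.7 ± 4.92 CPM in WT mice, -0.63 ± 0.12) and 25 weeks (-0.58 ± 0.14) and had -0.25 ± 0.12 at 55 weeks. St3gal3 was lower at 25 weeks (-0.33 ± 0.11) and at 55 weeks, where it read 18.8, 25.4, 26.2, 18.5 and 19.4 CPM in villin-PPARD mice and 40.9, 40.3, 39.1, 47 and 37.6 CPM in WT mice (-0.92 ± 0.10, adjusted p 5.67e-09). Its 25-week call was lost with library size alone (-0.17, adjusted p 0.223), with no filter (-0.30), and without villin-PPARD replicate 1 (-0.30) or WT replicate 1 (-0.24). St3gal1 and St3gal2 averaged 7.84 and 0.865 CPM in 25-week villin-PPARD mice and 12.4 and 1.56 CPM in WT mice, both called lower. St3gal1 also lost that call without WT replicate 1 (-0.49). St3gal2 also lost it with a library group term (-0.81), and without villin-PPARD replicate 1 or 3 or WT replicate 3 or 4 (-0.81 to -0.74). St6galnac2, which sialylates core 1 and its precursor, averaged 63.1 ± 4.79 CPM in villin-PPARD mice and 97.7 ± 10.9 CPM in WT mice at 55 weeks (-0.63 ± 0.10, adjusted p 2.06e-06), with smaller differences at 25 weeks (-0.39 ± 0.11) and 10 weeks (-0.27 ± 0.10). The 10-week call was lost without any of villin-PPARD replicates 4 or 5 or WT replicates 2 or 3 (-0.28 to -0.21), and none of the 3 calls held with library size alone. St8sia5, a ganglioside enzyme, was under 1 CPM on average in both genotypes at 55 weeks, at 0.0488 ± 0.0336 CPM in villin-PPARD mice and 0.747 ± 0.253 CPM in WT mice (-3.82 ± 0.50).

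St6galnac1, the sialyl-Tn synthase, had too few counts to be tested. It had 64 counts in all, spread over the 5 villin-PPARD libraries of 55 weeks at 0.37, 0.318, 0.154, 0.596 and 0.627 CPM. The other 23 libraries had 0 counts, and 3 counts would have been 0.136 to 0.267 CPM in the WT libraries of that age, a limit that covers counting error only. Of the other 15 untested genes, St8sia1 reached the most in any library, 0.601 CPM, and Galntl5 had no count in any.

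**Figure D3:**
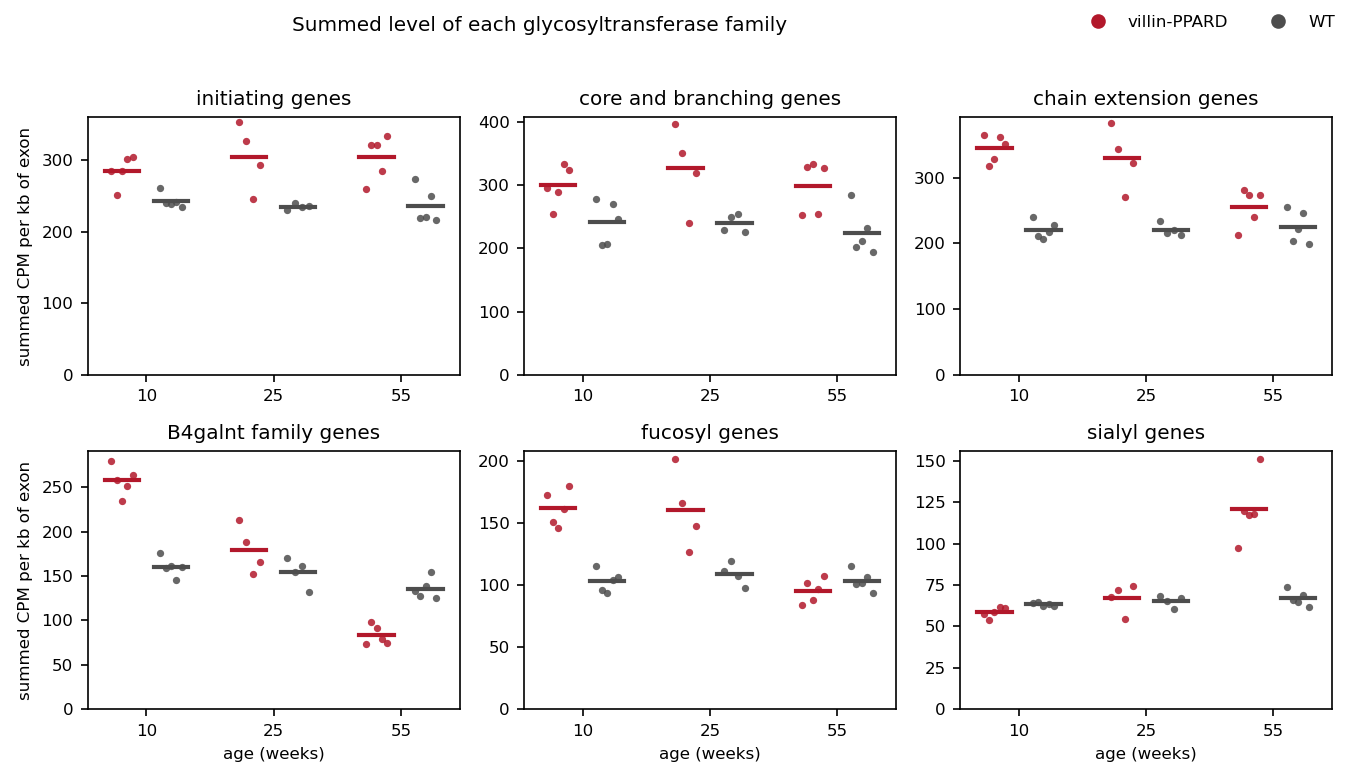
Summed level of each family per library, as CPM per kb of exon on axes that start at 0, with villin-PPARD mice left of WT mice at 10, 25 and 55 weeks; points are mice and bars are means. The B4galnt sum was 83.1 in villin-PPARD mice against 136 in WT mice at 55 weeks, and the sialyltransferase sum was 121 against 67.

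Added up per kilobase of exon, the families took different courses. Sialyltransferases summed to 58.4 ± 3.06, 67.2 ± 8.81 and 121 ± 19.2 CPM per kb in villin-PPARD mice at 10, 25 and 55 weeks and to 63.3 ± 1.08, 65.2 ± 3.55 and 67 ± 4.61 in WT mice. The 55-week ranges were 97.4 to 151 and 61.6 to 73.8. The 4 B4galnt genes summed to 258 ± 16.7, 180 ± 26.7 and 83.1 ± 11 CPM per kb in villin-PPARD mice and to 161 ± 11.2, 155 ± 16.5 and 136 ± 11.5 in WT mice. With TMM scaling the order of the genotypes was opposite at 10 and 55 weeks, with no overlap at either. All family sums and overlaps given here hold for TMM scaling, and they were not recomputed with library size alone. B4galnt1 made up 78.9% of the B4galnt sum in 55-week villin-PPARD mice, and its 55-week log2 difference was 0.05 with library size alone. B4galnt3, at 19.5% of that sum, kept its lower call at 55 weeks with library size alone. Fucosyltransferases summed to 162 ± 14.2 in villin-PPARD mice and 103 ± 8.61 in WT mice at 10 weeks, and to 95.6 ± 9.74 and 104 ± 7.99 at 55 weeks, where the ranges overlapped. The initiating enzymes summed to 304 ± 30.8 and 236 ± 25.3 and the core and branching enzymes to 299 ± 41.9 and 225 ± 36 CPM per kb at 55 weeks, also with overlap. At 10 weeks these sums were 285 ± 21.4 and 243 ± 10.1, and 300 ± 31.3 and 242 ± 34.3, again with overlap. The chain extension genes summed to 344 ± 20.7, 330 ± 46.9 and 256 ± 28.8 in villin-PPARD mice at the 3 ages. In WT mice they summed to 220 ± 13.6, 220 ± 9.59 and 225 ± 25.3, with overlap only at 55 weeks.

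**Figure D4:**
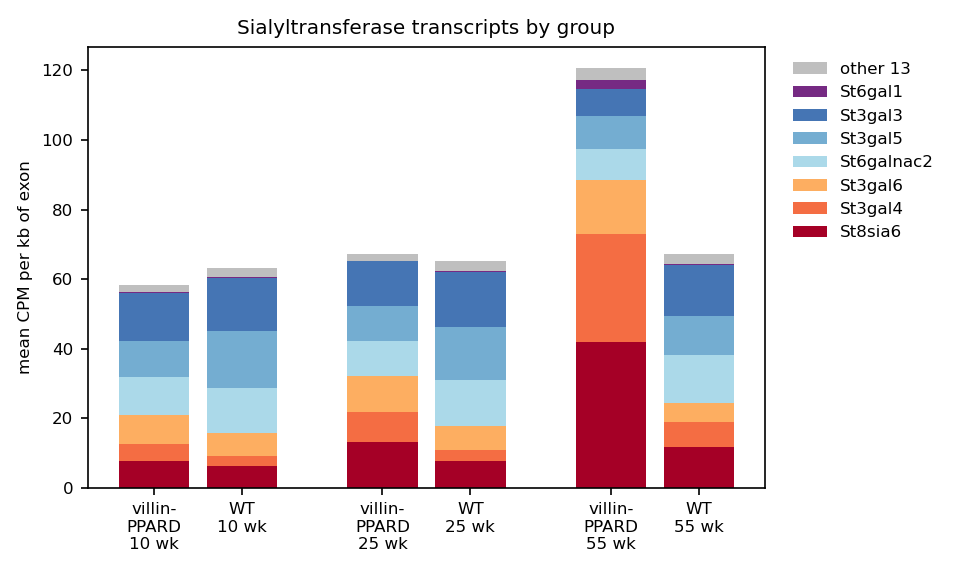
Mean level of the sialyltransferases in each group as stacked CPM per kb of exon, with villin-PPARD left of WT at 10, 25 and 55 weeks; each colour is 1 gene and grey is the sum of the remaining 13. St8sia6 and St3gal4 took 34.2% and 26% of the sum in 55-week villin-PPARD mice against 17.3% and 10.5% in WT mice.

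The makeup of the sialyltransferase sum changed with its size. St8sia6 made up 34.2% and St3gal4 26% of it in 55-week villin-PPARD mice, against 17.3% and 10.5% in WT mice of that age. St3gal3, St3gal5 and St6galnac2 made up 6.6%, 7.87% and 7.56% in the villin-PPARD mice and 22.1%, 16.8% and 20.7% in the WT mice. Among the B4galnt genes, B4galnt3 made up 52.9% of the sum in villin-PPARD mice and 42.1% in WT mice at 10 weeks, and 19.5% and 33% at 55 weeks.

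Within WT mice few members were called between ages. Between 25 and 10 weeks none of the 62 genes was called in WT mice with edgeR, where 0.0126% of all genes were; 1 had an unadjusted p under 0.05, and DESeq2 also called 0. In villin-PPARD mice 3 were called over those weeks, where 2.81% of all genes were, and that number was 0 without replicate 4 of 25 weeks and 9 without replicate 3. Between 55 and 10 weeks 5 were called in WT mice, where 12.7% of all genes were (6.43% higher, 6.26% lower): St3gal4 and St8sia6 were higher at 55 weeks, and B4galnt2, B4galnt3 and St3gal5 lower. Against only the 10-week replicates of the same library group, 1 of them was called, B4galnt2 (-1.38, adjusted p 0.0446). In the full edgeR fit 19 of the 62 had an unadjusted p under 0.05 for 55 against 10 weeks in WT mice. In villin-PPARD mice 41 were called between 55 and 10 weeks, 19 higher and 22 lower at 55 weeks, where 51.7% of all genes were (27.2% higher, 24.5% lower). With the 10-week replicates of the same library group that number was 32.

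The genotype difference itself changed with age. Between 25 and 10 weeks no member was called for such a change, where 0.00632% of all genes were; 8 had an unadjusted p under 0.05, and DESeq2 also called 0. Between 55 and 10 weeks 33 were called, 15 towards villin-PPARD and 18 away from it, where 36.4% of all genes were (18.4% and 18%). The number was 23 with the 10-week replicates of the same library group. Between 55 and 25 weeks 30 were called, where 28.9% of all genes were; this step lies across library groups except for the replacement library, so the library group and the age cannot be told apart there. The changes with the lowest adjusted p between 55 and 10 weeks were those of B4galnt3 (-2.46), B3gnt7 (-1.60), A4gnt (-2.54), B3galt4 (-1.19) and B4galnt1 (-0.92) on the falling side, and of St6gal1 (3.40 ± 0.44), Galnt1 (0.82), B4galt4 (2.62 ± 0.50), St3gal6 (1.12 ± 0.22) and St8sia6 (1.50 ± 0.35) on the rising side. All 10 were also called with library size alone and with 10-week replicates 4 and 5 only. Of the 24 members called at 10 weeks, 15 were called with replicates 1 to 3 alone (10 higher, 5 lower) and 10 with replicates 4 and 5 alone (all higher), with fewer mice in each. B3gnt3, B3gnt7, B4galnt1, B4galnt3, Fut2, Galnt3 and Gcnt1 were called with both, and Galnt12, Galntl6, Gcnt3, Gcnt4, St6galnac2 and St8sia5 with neither.

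The genes around these enzymes were taken from 3 lists. Of all genes 34%, 39.6% and 59.3% were called at 10, 25 and 55 weeks, and the counts of each list stand beside those shares. Of 14 tested mucin backbones and secreted partners, 6 were higher in villin-PPARD mice at 10 weeks and none lower, 5 and none at 25 weeks, and 8 and 4 at 55 weeks. Muc5ac, the main surface mucin, was higher at 10 weeks (0.61 ± 0.24, adjusted p 0.0493) and lower at 55 weeks (-1.92 ± 0.25), and Muc6, the gland mucin, was lower at 55 weeks. The membrane mucin Muc13 averaged 622 CPM in villin-PPARD mice and 8.59 CPM in WT mice at 55 weeks (6.18 ± 0.38), and Muc4 was higher at all 3 ages (1.14 ± 0.37, 2.15 ± 0.43 and 3.88 ± 0.41). The goblet cell mucin Muc2 was at 0.281 CPM in villin-PPARD mice and 2.09 CPM in WT mice at 55 weeks (-2.87 ± 0.35).

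Of 25 tested genes that supply or carry nucleotide sugars, 10, 10 and 13 were higher and 1, 4 and 3 lower at 10, 25 and 55 weeks. Gmds, the first enzyme of GDP-fucose synthesis, was higher at each age (0.76 ± 0.11, 0.70 ± 0.13 and 0.62 ± 0.11), as was Slc35c1, the GDP-fucose carrier of the Golgi (0.43 ± 0.08, 0.36 ± 0.09 and 0.38 ± 0.08). Gne and Nans, which make sialic acid, were called higher at 55 weeks only among the 3 ages (0.36 ± 0.10 and 0.38 ± 0.11). Of 12 other terminal and sulfating enzymes, 3, 3 and 3 were higher and 2, 2 and 6 lower. Abo, the blood group A and B transferase, averaged 1.15, 3.09 and 23.9 CPM in villin-PPARD mice at the 3 ages and 0.393, 0.339 and 0.754 CPM in WT mice (1.63 ± 0.40, 3.23 ± 0.44 and 5.02 ± 0.31). Chst4, a GlcNAc sulfotransferase, was higher at 25 weeks (0.77 ± 0.27) and fell at 55 weeks to 8.12 CPM in villin-PPARD mice against 43.8 CPM in WT mice (-2.42 ± 0.26).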

How the data were processed

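RNA from 28 scraped gastric corpus samples, 1 per mouse, had been made into poly-A libraries and sequenced as paired reads. The authors aligned with TopHat2 2.0.14 to mm10 and counted with HTSeq 0.6.1, and DESeq2 is also listed, per the submitters' processing notes. The deposited values are raw read counts per gene. Which annotation and strand option HTSeq used is not given in the sources used here, and per the labels' protocols the kit does not mark strand. The exons of 22 of the 78 members overlap another gene by 5% or more. Besides those named above they include B3gnt8 (18.1%), B4galnt2 (15.3%), St3gal4 (14.1%) and B3gnt7 (12.6%).

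The counts were fitted with edgeR 4.0.16 in R 4.3.3: TMM scaling, a filter on low counts by group, 1 mean for each of 6 groups over all 28 libraries, the robust quasi-likelihood test, and Benjamini-Hochberg adjustment of each p-value over 15812 genes. The script was tested on simulated data. Levels between genes use exon length on GRCm38, and promoters are RefSeq windows. Total counts of 10982888 to 30891108 set the precision. Floors cover counting error only. The SD are over mice, and the SE come from the edgeR fit, so both also hold differences between mice.

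The members and gene lists were chosen with earlier results of these data known. Genes named singly are 9 chosen by role, up to 8 called genes per direction and age with the largest difference and at least 1 CPM in a group, and up to 5 per direction by the lowest adjusted p for the change of the genotype difference between 55 and 10 weeks. Others named were chosen after their values were seen. Alternatives were other scaling, filters and tests, a replicate block, library group terms, and leaving out libraries. Recounting the 3 age patterns under them was added after seeing the data. The planned exact permutation test of a single value was not needed and is not reported. Replicate numbers did not pair the mice (correlations of same-numbered mice from -0.49 to 0.24).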

Additional observations from a re-analysis of the deposited data

Results flagged for a closer look

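A single library stood apart from the others of its group in 13 of 229 groups of 4 or 5 mice tested, where chance gives about 1 in 20. Among villin-PPARD mice these were replicate 3 of 10 weeks for B4galt4 (1.16 CPM), replicate 3 of 25 weeks for Galnt1 (90.3 CPM), St8sia6 (60.3 CPM), B4galt4 (0.404 CPM) and B3galt5 (15.5 CPM), replicate 2 of 25 weeks for St3gal2 (1.37 CPM), replicate 4 of 55 weeks for St3gal2 (2.46 CPM) and replicate 5 of 55 weeks for St3gal6 (136 CPM). Among WT mice they were replicate 1 of 25 weeks for St3gal3 (51.8 CPM), replicate 1 of 55 weeks for Gcnt4 (3.65 CPM), Gcnt2 (20.5 CPM) and B3galt1 (9.36 CPM), and replicate 2 of 55 weeks for St3gal6 (37.8 CPM).

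The genotype difference changed between 55 and 10 weeks, by edgeR's test of that change, for 24 of the 39 genes named by rule. Over all genes 36.4% were called for such a change. Most of the 39 were named for large genotype differences or for a low adjusted p in this same test. The count of 24 is therefore raised by the choice of genes. The genotype difference moved towards villin-PPARD for St6gal1 (3.40), B4galt4 (2.62), Galnt18 (1.87), Fut9 (1.68), St8sia6 (1.50), St3gal4 (1.48), St3gal6 (1.12), Galnt1 (0.82), B3galt6 (0.74) and St3gal1 (0.73), all log2. It moved away for B3galt1 (-3.25), A4gnt (-2.54), B4galnt3 (-2.46), B4galnt2 (-1.83), B3gnt7 (-1.60), Fut4 (-1.57), B3galt5 (-1.27), B3galt4 (-1.19), B4galnt1 (-0.92), St3gal3 (-0.78), Galntl6 (-0.75), Fut2 (-0.70), C1galt1c1 (-0.54) and St6galnac2 (-0.36). The calls of B3galt5, St6galnac2, C1galt1c1, Galntl6, B3galt6 and St3gal1 were lost under 3 or more of the alternatives, leaving out single libraries included.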

How the results depend on the processing

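Library size alone in place of TMM moved the median log2 difference of all genes by 0.04, 0.16 and 0.40 at 10, 25 and 55 weeks and by 0.36 for its change between 55 and 10 weeks. The share of all called genes that were higher in villin-PPARD mice was then 61.7%, 74.5% and 78.9%, against 52.5%, 53% and 53.4% with TMM. It turned the sign at 55 weeks for C1galt1c1 (0.05), B4galnt1 (0.05) and Fut2 (0.34), and that of the change for St6galnac2 (0.02), and it left 4, 6 and 7 members called lower at 10, 25 and 55 weeks against 7, 13 and 19. The cause was not tested.

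At 10 weeks, where 24 members were called, 15 were called with replicates 1 to 3 and 11 with replicates 4 and 5, fewer mice being used. Of these 10 and 10 were higher. Replicates 4 and 5 gave 1 lower, which was not among the 24, and no filter gave 4 lower. The 3 calls between 25 and 10 weeks in villin-PPARD mice were 5 with library size alone, 1 with the replicate block, 1 with a library group term, 0 with either part of the 10-week mice and 7 with DESeq2. The 5 calls between 55 and 10 weeks in WT mice were 8 with a stricter filter, 8 with only the groups compared, 8 with 10-week replicates 1 to 3, 1 with replicates 4 and 5 and 1 with the library group term. The replicate block moved no other count of calls by over 1.5 times.

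Without each library in turn, the calls ranged from 22 to 27 at 10 weeks (5 to 10 lower), 23 to 33 at 25 weeks and 41 to 46 at 55 weeks. Members lower at 25 weeks ranged from 6 to 15, with 8 without WT replicate 1 and 6 without WT replicate 4 of that age. Calls between 25 and 10 weeks in villin-PPARD mice ranged from 0 to 9: 0 without villin-PPARD replicate 4 of 25 weeks, 9 without replicate 3, 1 without replicate 1 or 2 of 10 or of 25 weeks, and 5 without replicate 1 of 55 weeks of either genotype. Those between 55 and 10 weeks in WT mice ranged from 4 to 8, with 8 without villin-PPARD replicate 3 of 25 weeks. The changes of the genotype difference between 55 and 10 weeks ranged from 30 to 35. Genes at a few counts per library limit what can be called.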

Other observations

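The intestinal goblet cell markers summed to 3965 to 9792 CPM in villin-PPARD mice at 55 weeks and to 630 to 712 CPM in WT mice, with 4 of 7 called higher and 2 lower. Most of the villin-PPARD sum came from Fcgbp and Clca1, with means of 3694 and 2772 CPM. In villin-PPARD and WT mice Agr2 averaged 286 and 551 CPM, Spdef 41.9 and 35.5 CPM, and Muc2 0.281 and 2.09 CPM. Tff3 and Zg16 averaged 4.52 and 1.73 CPM in villin-PPARD mice and 0.66 and 0.0664 CPM in WT mice. Of 5 cycling cell markers, 4, 5 and 5 were called higher at 10, 25 and 55 weeks, and their sum at 55 weeks was 297 to 398 CPM in villin-PPARD mice and 122 to 142 CPM in WT mice. A4galt, which makes the Gb3 glycolipid and is not a family member by name, averaged 3.88 CPM in villin-PPARD mice and 18.5 CPM in WT mice at 55 weeks (-2.26 ± 0.14).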
